A study of Homo sapiens with 8 samples.

Results

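The genes described here are 55 genes of DNA replication and nucleotide supply, taken by symbol from a fixed list and matched through their Ensembl identifiers to the 60675 genes counted in every library. All 55 matched, and all passed the filter on low counts that left 16661 genes for testing. RNA was sequenced from Panc10.05 cells, a human line established from a pancreatic tumour, and from Panc10.05R, a derivative that had become resistant to indisulam, a compound that recruits the splicing factor RBM39 to a ubiquitin ligase for degradation. The 8 libraries formed 4 groups of 2. Parental untreated cells received no drug, and parental indisulam cells received 2 µM indisulam for 18 h. Resistant indisulam cells were kept on 2 µM of the drug, whereas resistant untreated cells had been taken off it for 1 week (a drug holiday). Both resistant groups thus shared a history of selection on indisulam. The resistant line is a single derivative of 1 cell line, and the length of exposure differed between the lines, so line and exposure cannot be told apart.

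DNA replication starts at origins, where the origin recognition complex (ORC) together with CDC6 and CDT1 loads the ring of MCM proteins before S phase. The kinase CDC7 with its partner DBF4, and the assembly of CDC45 and the GINS complex onto MCM, turn the loaded ring into the active CMG helicase. DNA polymerases then copy both strands with the help of the PCNA clamp and its loader, RPA covers single-stranded DNA, and ribonucleotide reductase, thymidylate synthase and thymidine kinase supply the deoxynucleotides. Many of these genes are transcribed around the entry into S phase through E2F factors, whereas genes of mitosis follow later in the cycle.

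The libraries held 65266253 to 108002436 reads in genes, and each replication gene had 1067 to 90565 reads in each library, so counting error was small, and each group rested on 2 libraries. Libraries of 1 group are technical replicates in the words of the study, so p-values measure only the spread between these libraries. Reads marked as duplicates made up 14.07 to 18.43% of the listed reads and were not counted. The growth notes of the labels name A549, a lung cancer line, whereas the titles name Panc10.05. Ductal markers (KRT7, KRT8, KRT18, KRT19, EPCAM and MUC1) summed to 6128 to 11944 CPM per library, while 4 of 6 lung markers (NKX2-1, SFTPA1, SFTPA2 and SFTPB) were at 0 in every library and the 6 summed to at most 0.198 CPM. KRT8 (2425 to 4839 CPM) and KRT18 (2185 to 4471) were the highest of the ductal markers and MUC1 (3.95 to 19.2) the lowest. No A549 library was compared, so these markers cannot tell the 2 lines apart. Leukocyte markers summed to at most 0.371, endothelial markers to at most 0.426 and fibroblast markers to 1.35 to 4.03 CPM. CPM values are read counts per library size in units of 1e+06 reads, scaled between libraries by TMM (the trimmed mean of M values). Genes were called at an adjusted p under 0.05 in edgeR's quasi-likelihood test, with the Benjamini-Hochberg adjustment over all 16661 genes, and each log2 fold change is given with its standard error (SE). In bulk RNA, fewer cells in S phase and less RNA per cell cannot be told apart.

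Per kilobase of merged exons, PCNA had the highest mean level over the 8 libraries, 197 CPM per kb, followed by MCM7 (153), TK1 (134), RRM1 (129) and MCM3 (110). The lowest were MCM8 (4.29), ORC4 (3.91) and POLA2 (1.6). Merged exons include every annotated isoform, and with the length of the canonical transcript alone MCM7 came first (308 CPM per kb), with MCM4 (224) and PCNA (217) next. Levels of a single gene moved little between libraries. The highest library was a median of 1.42 times the lowest, and 19 of the 55 genes passed 1.5 times.

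**Figure D1:**
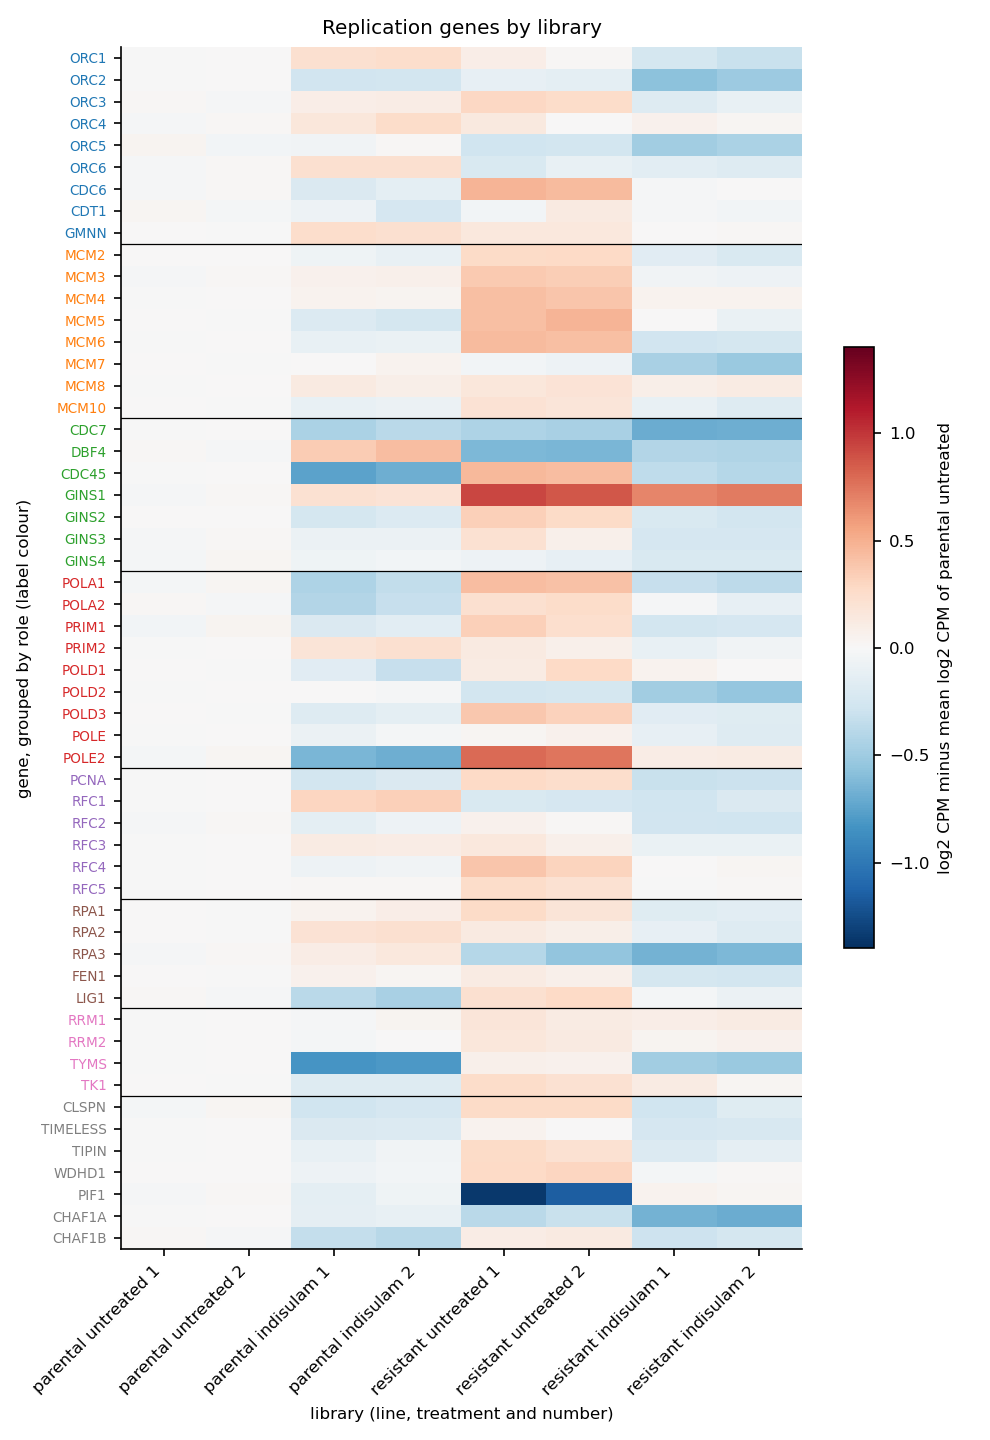
Level of each of the 55 genes (rows, grouped by role and coloured by role in the labels) in each of the 8 libraries (columns), as log2 CPM minus the mean log2 CPM of the parental untreated libraries. Most rows are red in the resistant untreated and pale or blue in the resistant indisulam columns, while PIF1 is the darkest blue row in the resistant untreated columns (14.4 and 16.5 CPM).

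Promoter sequence was available for 49 of the 55 genes in the RefSeq table for GRCh38.p14. In the 250 bases before the first listed start, an E2F motif (TTTCCCGC, TTTGGCGC, TTTCGCGC or TTTGCCGC, on either strand) was found in 13 of 49 genes (26.5%), against 2.79% of 27305 promoters. A CCAAT box (CCAAT) was found in 57.1% against 33%, and a GC box (GGGCGG) in 69.4% against 42.3%. The CHR element (TTTGAA), a motif known from genes of late cell cycle, was found in 2 genes, PIF1 and RRM1 (4.08% against 13.6%). CDC45 and POLE2, which were among the largest falls in both lines, held none of these E2F words. Only the listed words were searched, so a gene without a match may still hold an E2F site. The windows of CDC45 and CDC6 hold TTTGGCGG, which differs from TTTGGCGC in its last base and was not counted. The following upstream sequences are shown for a few chosen genes, 5′ to 3′ on the strand of the gene. Bases that the annotation places in an exon were left out. Capitals mark E2F motifs in the first 4. In MCM6 (chr2:135876444-135876693, minus strand) each capital run holds 2 overlapping matches, TTTGGCGC and GCGCGAAA, and the runs end 140 and 78 bases before the start. The others are GINS2 (chr16:85688955-85689204, minus strand), PCNA (chr20:5126627-5126872, minus strand) and POLA1 (chrX:24693668-24693872, plus strand). In PIF1 (chr15:64825669-64825897, minus strand), which held no E2F match, capitals mark CCAAT boxes read on the opposite strand, and its TTTGAA lay in the exonic bases that are not shown.
MCM6: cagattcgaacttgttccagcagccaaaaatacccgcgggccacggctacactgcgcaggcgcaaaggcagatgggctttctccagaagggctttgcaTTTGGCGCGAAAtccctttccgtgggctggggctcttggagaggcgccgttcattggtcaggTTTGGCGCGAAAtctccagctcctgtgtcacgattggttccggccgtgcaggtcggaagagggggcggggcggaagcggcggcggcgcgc
GINS2: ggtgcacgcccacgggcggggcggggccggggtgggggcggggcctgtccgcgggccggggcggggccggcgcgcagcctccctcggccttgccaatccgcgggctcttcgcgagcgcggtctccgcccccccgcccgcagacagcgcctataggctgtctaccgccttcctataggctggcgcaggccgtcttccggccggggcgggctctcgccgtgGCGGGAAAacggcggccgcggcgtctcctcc
PCNA: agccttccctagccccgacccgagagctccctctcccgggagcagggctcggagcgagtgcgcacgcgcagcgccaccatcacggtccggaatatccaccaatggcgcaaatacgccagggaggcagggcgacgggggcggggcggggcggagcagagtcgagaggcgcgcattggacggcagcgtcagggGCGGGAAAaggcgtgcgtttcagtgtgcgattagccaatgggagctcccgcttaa
POLA1: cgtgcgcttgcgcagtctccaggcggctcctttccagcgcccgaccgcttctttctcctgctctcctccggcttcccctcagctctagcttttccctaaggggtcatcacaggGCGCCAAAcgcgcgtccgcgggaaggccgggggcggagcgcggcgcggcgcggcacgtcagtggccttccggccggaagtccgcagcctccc
PIF1: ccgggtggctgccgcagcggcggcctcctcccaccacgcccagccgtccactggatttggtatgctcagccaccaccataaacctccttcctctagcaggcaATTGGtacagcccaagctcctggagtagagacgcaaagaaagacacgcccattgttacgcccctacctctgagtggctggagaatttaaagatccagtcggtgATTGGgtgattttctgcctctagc
A match describes letters only. In resistant cells on the drug against those off it, the 13 genes with an E2F match had a median log2 fold change of -0.41 (12 lower, 0 higher), and the 36 without one a median of -0.28 (28 lower, 2 higher). Of all genes tested, 25.8% were lower and 24.9% higher in that comparison. Medians with and without a match were -0.15 and -0.07 for the response of parental cells. Between the lines they were 0.25 and 0.15 off the drug and -0.08 for both sets on it. For the difference of the responses they were -0.32 and -0.23. Whether the sets differ was not tested, and the set without a match includes CDC45 and CDC6.

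The comparison of treated and untreated parental cells asks how replication genes respond to the drug in the parental line, which the study calls moderately sensitive. The response was mixed and small. Of the 55 genes, 39 (70.9%) were called, 15 higher and 24 lower, where 58.2% of all genes tested were called, 31.6% higher and 26.6% lower. The median log2 fold change was -0.08, against 0.014 over all genes. TYMS (thymidylate synthase), CDC45 and POLE2 fell most, by 0.81, 0.71 and 0.66 log2 units, and these 3 were the only ones past 0.5. DBF4 rose most, by 0.39. The split depended on scaling, with 9 higher and 33 lower by library totals alone and 9 and 34 among genes at a mean CPM of 1 or more, and 9 rose without parental untreated replicate 1 or without parental indisulam replicate 2.

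In resistant cells the comparison of cells on the drug with cells on a drug holiday gave a more uniform picture. Here 48 of 55 genes (87.3%) were called, 2 higher and 46 lower, where 50.7% of all genes were called, 24.9% higher and 25.8% lower. The median log2 fold change was -0.32, against 0.009 over all genes. CDC45 (-0.82), POLA1 (-0.76), MCM6 (-0.70), POLE2 (-0.66), PCNA (-0.58), TYMS (-0.56), GINS2 (-0.54), PRIM1 (-0.53) and POLD3 (-0.51) fell by more than 0.5 log2 units. PIF1 and DBF4 were the 2 genes that rose. The 7 genes not called were ORC4, ORC6, CDT1, MCM8, POLD1, RFC1 and RRM1. With library totals alone the split was 2 higher and 44 lower.

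Off the drug, resistant cells were compared with parental cells. Of the 55 genes, 37 were higher and 11 lower in resistant cells, 48 in all (87.3%), where 60.1% of all genes were called, 30.3% higher and 29.9% lower, and the median was 0.15 against -0.015 over all genes. GINS1 (0.90) and POLE2 (0.77) were past 0.5 log2 units above, PIF1 (-1.25) and DBF4 (-0.64) past it below. On the drug the order turned for many genes. Then 14 were higher and 27 lower in resistant cells, 41 in all (74.5%), where 69.5% of all genes were called, 34.6% higher and 34.9% lower, and the median was -0.08 against 0.003 over all genes. That split also depended on scaling, with 22 higher and 20 lower by library totals alone and 21 of each among genes with a mean CPM of at least 1.

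The difference of the responses, resistant minus parental, was tested as an interaction. It was called in 43 of 55 genes (78.2%), 3 higher and 40 lower, where 50.1% of all genes were called, 22.7% higher and 27.5% lower. Its median was -0.25, against 0.01 over all genes. MCM6 (-0.60), ORC1 (-0.57) and ORC3 (-0.50) had the most negative differences, and PIF1 (1.38), TYMS (0.25) and CDC7 (0.16) were the 3 called positive ones. By library totals alone, a scaling that moved the median of all genes by 0.115 in this contrast, 6 were higher and 30 lower. Without parental indisulam replicate 1 or without resistant untreated replicate 2, 6 were higher. The share of assignable reads outside genes moved with this contrast, at 5.95 and 6.07% without and 4.62 and 4.73% with the drug in the parental line, and at 4.52 and 5.19% without and 5.91 and 5.96% with it in the resistant line, and its part in the result was not tested. Each group of libraries enters more than 1 of these comparisons, so they are not independent of each other, except the responses of the lines, which share none.

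**Figure D2:**
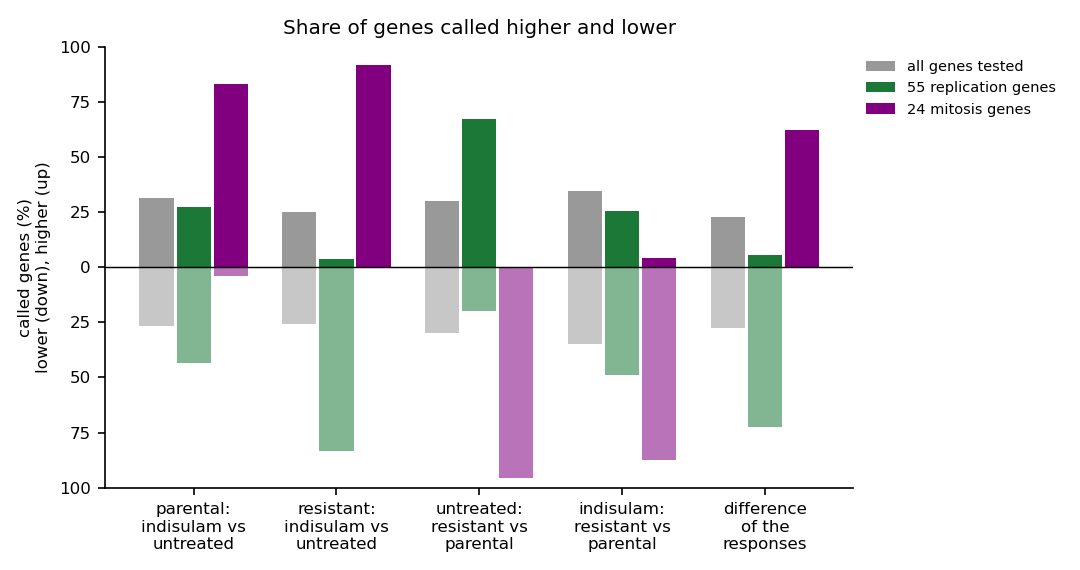
Percent of genes called higher (bars above 0) and lower (paler bars below 0) in each comparison, for all 16661 genes tested, the 55 replication genes and 24 mitosis genes. In resistant cells on the drug 83.6% of replication genes were lower, against 25.8% of all genes, while 91.7% of mitosis genes were higher.

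The responses of the lines combined as follows. In both lines 23 genes fell and 1, DBF4, rose. Another 13 fell in resistant cells with no call in parental cells, among them MCM4, MCM7 and FEN1. In 10 genes the calls were opposite, higher in treated parental and lower in treated resistant cells: ORC1, ORC3, GMNN, MCM3, GINS1, PRIM2, RFC3, RPA1, RPA2 and RPA3. Only 5 of these 10, namely ORC1, GMNN, GINS1, PRIM2 and RPA2, were opposite by library totals alone, and the same 5 at a mean CPM of 1 or more, after thinning to the smallest total and without parental untreated replicate 1 or parental indisulam replicate 2. ORC4, ORC6, MCM8 and RFC1 rose in parental cells with no call in resistant cells, POLD1 fell in parental cells alone, and PIF1 rose in resistant cells alone. CDT1 and RRM1 were called in neither line. For POLD1 the interaction was not called (0.06, SE 0.091), so a difference between its responses was not shown. Taken singly, the response was called in 58.2% of all genes in parental cells and in 50.7% in resistant cells. Joint calls were counted for the replication genes alone. Whether the joint and opposite counts differ from those over all genes was not tested.

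**Figure D3:**
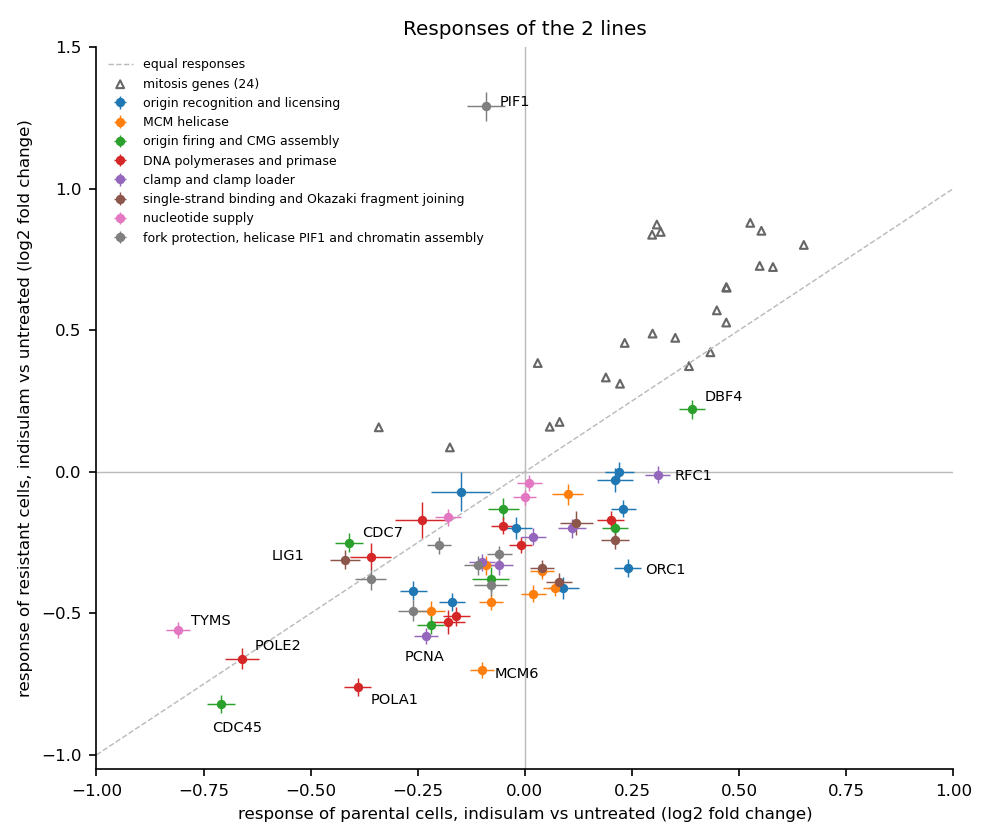
Log2 fold change with indisulam in parental cells (horizontal) against that in resistant cells (vertical) for the 55 genes, coloured by role with SE bars, and for 24 mitosis genes (open triangles). Most replication genes lie below the dashed line of equal responses, CDC45, POLE2 and TYMS lie at the lower left, and PIF1 lies apart at 1.29 on the vertical axis.

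Genes of origin recognition and licensing came first in order of action. ORC1, the largest ORC subunit (ENSG00000085840, chromosome 1, 52372829 to 52404423, minus strand), was at 83.8 and 84.2 CPM without and 98.4 and 99.5 with indisulam in the parental line, and at 89.5 and 84.9 CPM without and 70.8 and 67.6 with it in the resistant line. It was highest in treated parental and lowest in treated resistant cells, with no overlap between treated and untreated libraries of either line. The fold change was 0.24 (SE 0.032) in parental and -0.34 (SE 0.033) in resistant cells, a difference of -0.57 (SE 0.046, adjusted p 1.3e-09). ORC3 had the same pattern of calls, at 33.9 and 33.3, 35.7 and 36.1, 41.0 and 40.0, and 29.6 and 31.2 CPM in the 4 groups in this order (used below for further genes), with a difference of -0.50 (SE 0.053). Its rise in parental cells was small (0.09, SE 0.037, adjusted p 0.032) and was not called by library totals alone (0.03, adjusted p 0.55). ORC2 fell in both lines (-0.26 and -0.42) and ORC5 in resistant cells (-0.20), while ORC4 and ORC6 were level there (-0.03 and -0.00, neither called). The 6 subunits of 1 complex therefore ran from -0.42 to -0.00 in resistant cells. ORC4 shares 157 exonic bases with MBD5, which took 37.48% of the pair's reads.

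The licensing factors differed among themselves. CDC6, which recruits MCM to ORC, was at 91.2 and 93.0 CPM without and 80.2 and 83.6 with indisulam in the parental line, and at 128 and 125 CPM without and 91.2 and 92.6 with it in the resistant line. Resistant cells off the drug stood above the other groups, by 0.46 log2 units (SE 0.03) over parental untreated cells, and CDC6 fell by 0.46 (SE 0.031) with the drug. GMNN, which encodes geminin, the inhibitor of CDT1, was at 79.8 and 78.8, 93.9 and 92.7, 87.6 and 87.8, and 79.3 and 80.5 CPM. It rose by 0.23 in parental cells and fell by 0.13 in resistant cells, a difference of -0.37 (SE 0.042). CDT1 itself, the loader that geminin blocks, was at 93.2 and 89.1, 86.8 and 77.7, 88.9 and 99.4, and 90.3 and 88.7 CPM. Its 2 libraries of a group lay further apart than those of most genes (SE 0.067 to 0.096), and it was called in none of the 5 comparisons.

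The MCM genes moved together in resistant cells. MCM2 to MCM7 form the hexameric ring of the helicase, MCM10 helps to activate it, and MCM8 works mainly in recombination. Off the drug 7 of 8 were higher in resistant than in parental cells, with MCM7 as the exception (-0.05, not called). On the drug 7 of 8 fell in resistant cells, with MCM8 as the exception (-0.08, not called). Of all genes, 30.3% were higher in the first of these comparisons and 25.8% lower in the second. The 6 ring genes fell by 0.35 (MCM4) to 0.70 (MCM6). In parental cells MCM2, MCM5, MCM6 and MCM10 fell by 0.08 to 0.22, MCM8 rose by 0.10, and MCM3 rose by 0.07, but neither rise was called by library totals alone (0.04 and -0.00). All 8 were called lower in the interaction, from -0.18 (MCM8) to -0.60 (MCM6), and 7 of 8 by library totals, where MCM8 was at -0.07 (adjusted p 0.31). Of all genes, 27.5% were called lower in the interaction.

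MCM6 (ENSG00000076003, chromosome 2, 135839626 to 135876443, minus strand) was at 176 and 178 CPM without and 165 and 166 with indisulam in the parental line, and at 241 and 237 CPM without and 147 and 149 with it in the resistant line. The resistant libraries thus bracketed the parental ones, with the drug holiday the highest and continued drug the lowest of the 4 groups. The fall in resistant cells was 1.62-fold (log2 -0.70, SE 0.027, adjusted p 8.8e-16), against -0.10 (SE 0.027) in parental cells. MCM2 was at 268 and 268, 257 and 250, 322 and 326, and 241 and 231 CPM, with a difference of the responses of -0.38 (SE 0.04). MCM3 was at 372 and 379, 392 and 394, 484 and 475, and 362 and 358 CPM, with a difference of -0.48 (SE 0.038). MCM5 was at 189 and 187, 165 and 158, 251 and 262, and 189 and 176 CPM, the only ring gene that fell by over 0.2 in parental cells (-0.22, SE 0.033). In each of these genes the resistant untreated libraries were the highest of the 8. MCM7 differed in that its resistant indisulam libraries alone stood apart, at 602 and 574 CPM against 783 to 849 in the other 6.

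Among the 7 genes that fire origins, CDC45 fell most in both lines, GINS1 and DBF4 rose in parental cells, and DBF4 alone rose in resistant cells. CDC45, the helicase cofactor (ENSG00000093009, chromosome 22, 19479457 to 19520612, plus strand), was at 75.0 and 75.2 CPM without and 44.8 and 46.9 with indisulam in the parental line, and at 103 and 101 CPM without and 58.8 and 56.9 with it in the resistant line. It fell in both lines, 1.64-fold in parental (log2 -0.71, SE 0.033, adjusted p 4.6e-14) and 1.76-fold in resistant cells (log2 -0.82, SE 0.032, adjusted p 9.9e-16). Its level was higher in resistant than in parental cells both off (0.44) and on the drug (0.33), and the responses did not differ detectably (-0.11, SE 0.046, adjusted p 0.057).

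GINS1, a GINS subunit (ENSG00000101003, chromosome 20, 25391008 to 25452700, plus strand), was at 81.4 and 83.4 CPM without and 95.7 and 94.4 with indisulam in the parental line, and at 158 and 150 CPM without and 132 and 136 with it in the resistant line. All 4 resistant libraries were above all parental ones, 1.87-fold off the drug (log2 0.90, SE 0.031, adjusted p 1.1e-17) and 1.41-fold on it (log2 0.49). The other GINS subunits did not share this. Off the drug GINS2 was higher by 0.30, GINS3 by 0.15, and GINS4 was lower by 0.09, and on the drug GINS2 was level between the lines (-0.02, not called). In resistant cells all 4 fell, by 0.54 (GINS2), 0.38 (GINS3), 0.20 (GINS1) and 0.13 (GINS4). GINS2 shares 7 exonic bases with GSE1, which took 61.66% of the pair's reads.

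The kinase CDC7 and its activator DBF4 parted. CDC7 (ENSG00000097046, chromosome 1, 91500851 to 91525764, plus strand) was at 70.8 and 70.9 CPM without and 52.2 and 54.4 with indisulam in the parental line, and at 52.7 and 51.8 CPM without and 43.9 and 44.0 with it in the resistant line. DBF4 (ENSG00000006634, chromosome 7, 87876216 to 87909553, plus strand) was at 84.6 and 83.0, 107 and 113, 54.1 and 53.7, and 62.9 and 62.7 CPM. Both were lower in resistant cells off the drug, CDC7 by 0.44 (SE 0.032) and DBF4 by 0.64 (SE 0.033), but with the drug CDC7 fell by 0.41 and 0.25 in parental and resistant cells while DBF4 rose by 0.39 and 0.22. On the drug DBF4 was 1.75-fold lower in resistant cells (log2 -0.81, SE 0.033, adjusted p 2.4e-16), the largest difference of the 55 genes in that comparison. DBF4 shares 145 exonic bases with SLC25A40 on the opposite strand, which took 35.01% of the pair's reads.

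**Figure D4:**
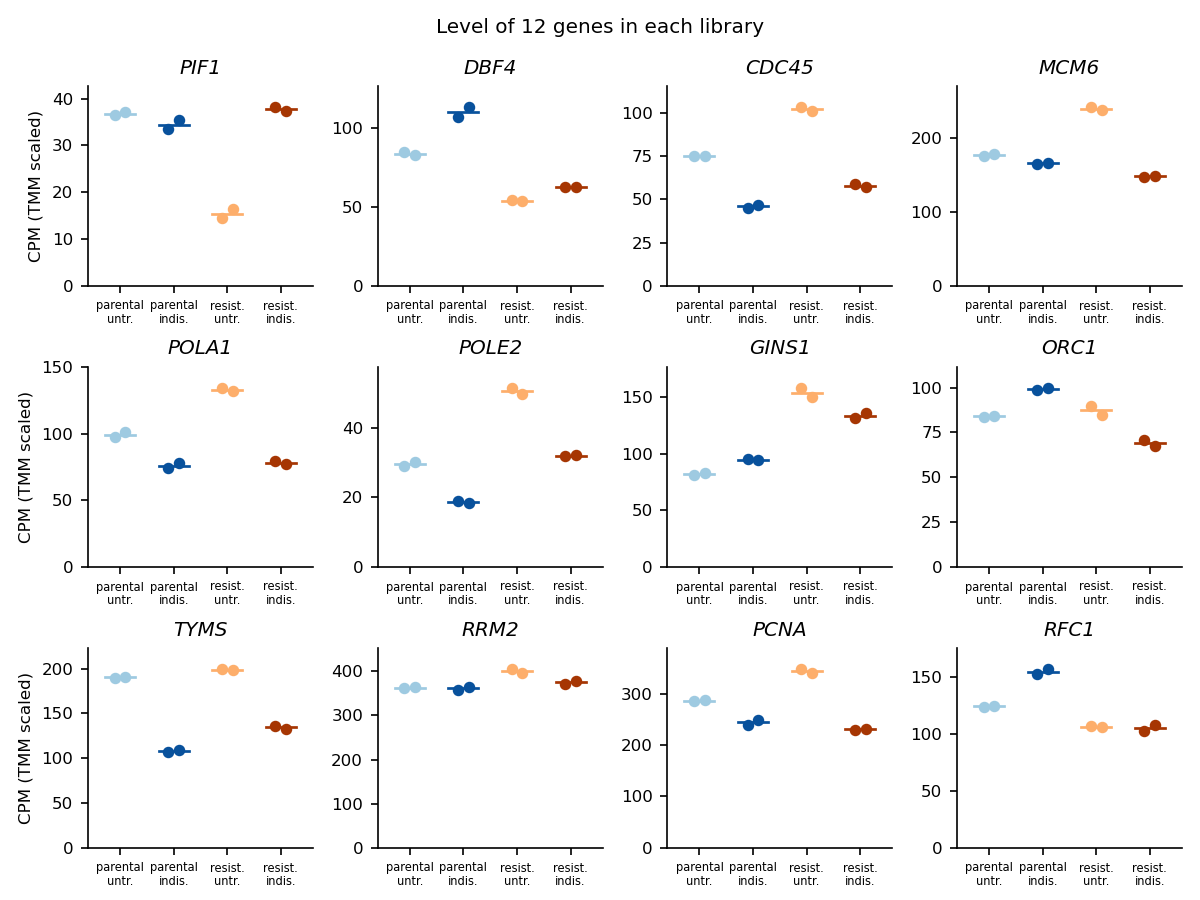
CPM (vertical, from 0) of 12 genes in each library (points), by group, with the mean of the 2 libraries as a line. Within groups the points nearly coincide. CDC45, MCM6, POLA1, POLE2 and PCNA peak in resistant untreated cells, while PIF1 is lowest there.

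Among the DNA polymerases and primase, 8 of 9 genes fell in treated resistant cells and 6 of 9 in treated parental cells. Of all genes, 25.8% and 26.6% did. POLA1, the catalytic subunit of polymerase alpha that starts each new strand (ENSG00000101868, chromosome X, 24693873 to 24996986, plus strand), was at 97.8 and 101 CPM without and 73.9 and 78.0 with indisulam in the parental line, and at 134 and 132 CPM without and 79.3 and 77.3 with it in the resistant line. It was higher in resistant cells off the drug (0.42, SE 0.031), and on the drug the lines overlapped (0.04, adjusted p 0.25, but called at 0.13 by library totals alone). The fall was 1.7-fold in resistant (log2 -0.76, SE 0.032) and 1.31-fold in parental cells (log2 -0.39, SE 0.032), and the responses differed by -0.37 (SE 0.046, adjusted p 5.1e-07). Its partners fell as well in resistant cells, PRIM1 by 0.53, POLA2 by 0.30 and PRIM2 by 0.17, while in parental cells PRIM2 rose by 0.20. PRIM1 shares 139 exonic bases with NACA on the same strand, which took 92.47% of the pair's reads, so its value is uncertain.

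POLE2, the second subunit of the leading-strand polymerase epsilon (ENSG00000100479, chromosome 14, 49643555 to 49688422, minus strand), was at 29.0 and 30.1 CPM without and 19.0 and 18.4 with indisulam in the parental line, and at 51.3 and 49.6 CPM without and 31.8 and 32.1 with it in the resistant line. The lines differed by the same factor off and on the drug, 1.71-fold in both. POLE2 was 1.58-fold lower with than without the drug in both lines, and the interaction was 0.00 (SE 0.054, adjusted p 0.97). Treated resistant cells were thus close to untreated parental cells. POLE, the catalytic subunit of the same enzyme, did not follow, at 163 and 164, 155 and 160, 167 and 170, and 151 and 144 CPM. It fell by 0.19 (SE 0.03) in resistant cells and was not called in parental cells (-0.05) or between the lines off the drug (0.05). Of the polymerase delta genes in resistant cells, POLD3 fell by 0.51, POLD2 by 0.26, and POLD1 was at -0.17 (SE 0.064, adjusted p 0.059).

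PCNA, the sliding clamp (ENSG00000132646, chromosome 20, 5114953 to 5126626, minus strand), was at 285 and 288 CPM without and 239 and 249 with indisulam in the parental line, and at 347 and 341 CPM without and 230 and 232 with it in the resistant line. It fell in both lines, by 0.23 (SE 0.028) in parental and 0.58 (SE 0.028) in resistant cells, and the responses differed by -0.34 (SE 0.04, adjusted p 2.3e-07). On the drug it was lower in resistant cells by 0.08, which became 0.01 by library totals alone. Beside 27.5% of all genes, the 5 genes of replication factor C, the clamp loader, were all lower in the interaction (-0.21 to -0.32). Of these RFC2 was not called by library totals alone (-0.10, adjusted p 0.059). RFC1, its large subunit (ENSG00000035928, chromosome 4, 39287456 to 39366375, minus strand), was at 124 and 125, 153 and 157, 107 and 106, and 103 and 108 CPM. It rose in parental cells (0.31, SE 0.029) and showed no detectable change in resistant cells (-0.01, SE 0.03), where RFC2 to RFC5 fell by 0.20 to 0.33. RFC4 and RFC5 share exonic bases with EIF4A2 and WSB2, which took 80.54% and 59.54% of each pair's reads.

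The RPA subunits, which coat single-stranded DNA, all rose in parental cells (0.08 to 0.21) and all fell in resistant cells (by 0.18 to 0.39). Of all genes, 31.6% rose in the former and 25.8% fell in the latter. By library totals alone the parental rise was called for RPA2 (0.15) but not for RPA1 (0.01, adjusted p 0.78) or RPA3 (0.06, adjusted p 0.2). Between the lines they parted, since RPA1 and RPA2 were higher in resistant cells off the drug (0.23 and 0.10, the latter not called by library totals) and RPA3 was lower. RPA3, the small subunit (ENSG00000106399, chromosome 7, 7636518 to 7718607, minus strand), was at 55.7 and 56.9 CPM without and 60.4 and 62.4 with indisulam in the parental line, and at 42.7 and 38.5 CPM without and 35.6 and 36.3 with it in the resistant line. All resistant libraries were below all parental ones, by 0.47 (SE 0.04) off and 0.77 (SE 0.041) on the drug. RPA1 and RPA3 share exonic bases with SMYD4 and UMAD1, which took 19.8% and 18.49% of each pair's reads.

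FEN1 and LIG1 act in sequence on Okazaki fragments, the first trimming the flap and the second sealing the nick. LIG1 (ENSG00000105486, chromosome 19, 48115445 to 48170603, minus strand) was at 79.0 and 77.1 CPM without and 60.3 and 56.8 with indisulam in the parental line, and at 91.3 and 94.6 CPM without and 76.4 and 73.5 with it in the resistant line. It fell in both lines (-0.42, SE 0.035, and -0.31, SE 0.034), with no detectable difference of the responses (0.11, SE 0.049, adjusted p 0.078), although by library totals alone the difference was called (0.22, adjusted p 0.0011). FEN1 fell in resistant cells alone (-0.34 against 0.04, not called), and there the responses differed, by -0.39 (SE 0.039).

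In nucleotide supply 3 of 4 genes fell in resistant cells, and 1 of 4, TYMS, had a called interaction. Of all genes, 25.8% fell there and 50.1% had a called interaction. TYMS, which makes thymidylate (ENSG00000176890, chromosome 18, 657653 to 673578, plus strand), was at 189 and 191 CPM without and 107 and 109 with indisulam in the parental line, and at 199 and 198 CPM without and 136 and 133 with it in the resistant line. It fell 1.75-fold in parental (log2 -0.81, SE 0.028, adjusted p 7.9e-16) and 1.48-fold in resistant cells (log2 -0.56, SE 0.028), and the fall was smaller in resistant cells by 0.25 (SE 0.039, adjusted p 1.8e-05). TYMS shares 967 exonic bases with ENOSF1 on the opposite strand, which took 33.76% of the pair's reads.

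Ribonucleotide reductase, which makes deoxynucleotides from ribonucleotides, changed little. RRM2, its small subunit (ENSG00000171848, chromosome 2, 10120698 to 10211725, plus strand), was at 361 and 364 CPM without and 357 and 365 with indisulam in the parental line, and at 404 and 397 CPM without and 372 and 378 with it in the resistant line. The parental groups overlapped (-0.00, SE 0.027), and the fall in resistant cells was 0.09 (SE 0.027, adjusted p 0.006) and was not called by library totals alone (-0.04, adjusted p 0.15). RRM1, the large subunit, was at 0.01 and -0.04 in parental and resistant cells, with neither called. TK1, the salvage kinase for thymidine, was at 241 and 240, 212 and 212, 287 and 279, and 261 and 246 CPM, and fell by 0.18 and 0.16. For RRM1, RRM2 and TK1 no difference of the responses was detected (-0.05, -0.09 and 0.02, with SE of 0.041, 0.038 and 0.042), although by library totals that of TK1 was called (0.14). All 4 genes were higher in resistant cells off the drug, by 0.07 to 0.23, and TYMS was the 1 of them not called by library totals (0.04). Of all genes, 30.3% were higher in that comparison.

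PIF1 had the largest change of the 55 genes in resistant cells on the drug, between the lines off the drug and in the interaction. In the first of these it rose, as did DBF4, and off the drug it was 1 of 11 genes that were lower in resistant cells. It encodes a 5′ to 3′ DNA helicase that unwinds structured DNA and acts at telomeres (ENSG00000140451, chromosome 15, 64815632 to 64825668, minus strand). Its level was 36.4 and 37.2 CPM without and 33.5 and 35.4 with indisulam in the parental line, and at 14.4 and 16.5 CPM without and 38.1 and 37.4 with it in the resistant line. The 2 libraries of resistant cells off the drug stood below the other 6, whose range was narrow. PIF1 rose 2.45-fold in resistant cells on the drug (log2 1.29, SE 0.05, adjusted p 1.2e-14), was 2.39-fold lower in resistant than parental cells off it (log2 -1.25, SE 0.05), and was level in parental cells (-0.09, SE 0.044, adjusted p 0.072). On the drug the lines differed by 0.13 (SE 0.045, adjusted p 0.014). Of the 55 genes it alone passed 1 log2 unit in any comparison.

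The fork protection genes CLSPN, TIMELESS and TIPIN, which steady the fork and pass on checkpoint signals, fell in resistant cells by 0.49, 0.26 and 0.40, as did WDHD1, which tethers polymerase alpha (-0.29). In parental cells CLSPN (-0.26) and TIMELESS (-0.20) fell, and TIPIN (-0.08) and WDHD1 (-0.06) were not called. CHAF1A, the large subunit of the chromatin assembly factor that places histones behind the fork (ENSG00000167670, chromosome 19, 4402640 to 4445018, plus strand), was at 85.1 and 85.2 CPM without and 77.9 and 79.5 with indisulam in the parental line, and at 65.6 and 68.6 CPM without and 53.9 and 52.8 with it in the resistant line. All resistant libraries were below all parental ones, by 0.34 off and 0.56 on the drug (SE 0.032 each). Its partner CHAF1B differed from it, being higher in resistant cells by 0.11 off and 0.09 on the drug, and fell by 0.36 and 0.38 in the lines. CHAF1A and CHAF1B share exonic bases with UBXN6 and MORC3, which took 37.62% and 44.82% of each pair's reads.

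**Figure D5:**
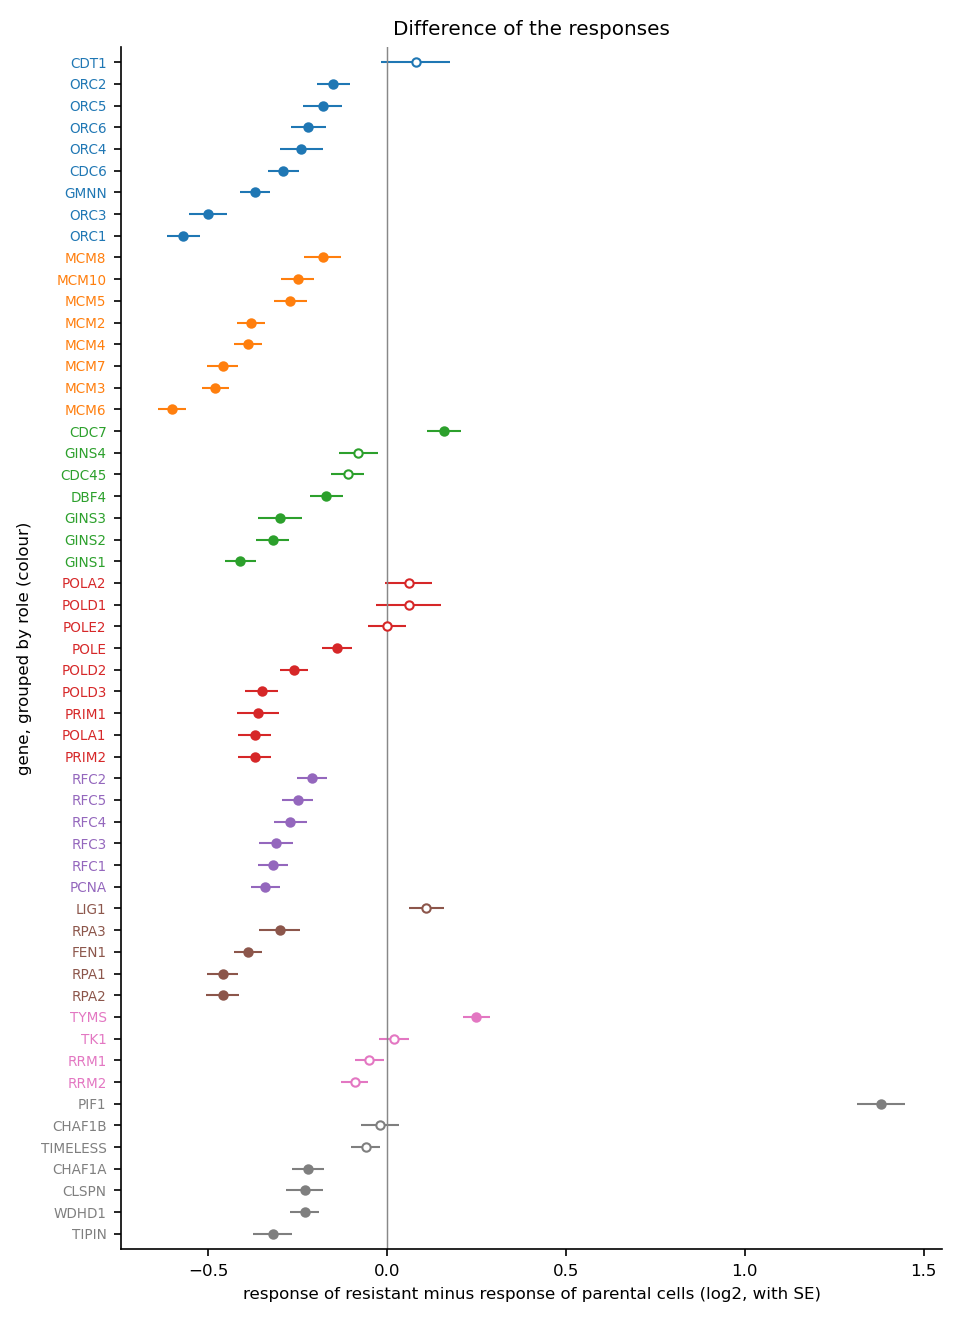
Response of resistant cells minus response of parental cells (log2, horizontal, with SE bars) for each of the 55 genes, grouped by role. Filled points were called. All 8 MCM genes and all 6 clamp and clamp loader genes lie below 0, the nucleotide supply genes lie between -0.09 and 0.25, and PIF1 lies at 1.38.

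Other genes of the same processes, chosen with earlier results of these data known, also fell for the most part in resistant cells. Of all genes tested, 25.8% fell and 24.9% rose in resistant cells, and 26.6% fell and 31.6% rose in parental cells. Of 30 further replication genes, 22 (73.3%) fell and 3 rose with the drug (median -0.26), led by DONSON (-0.45), a replisome assembly factor, and TOP2B (-0.41), a topoisomerase, while TOP2A, the topoisomerase of dividing cells, rose by 0.28 and ASF1A, a histone chaperone, by 0.12. In parental cells 13 of them fell and 8 rose (median -0.06), and the interaction was called in 15, 13 lower and 2 higher, a share of 50% beside the background of 50.1%. Off the drug they did not share the direction of the 55 genes. There 7 (23.3%) were higher and 14 (46.7%) lower in resistant than in parental cells (median -0.07). The 55 genes had 37 higher and 11 lower, and all genes 30.3% higher and 29.9% lower. Of 30 further genes of nucleotide metabolism, 23 (76.7%) fell and 2 rose in resistant cells (median -0.26). In parental cells 13 (43.3%) fell and 10 (33.3%) rose (median -0.04), and the share that rose was near that of all genes. SAMHD1, which breaks down deoxynucleotides, rose by 0.55 in parental cells and fell by 0.92 in resistant cells, from mean levels of 56.8 and 199 CPM in the untreated groups. It was higher in resistant cells off the drug by 1.81 log2 units (SE 0.029), and its responses differed by -1.47 (SE 0.041, adjusted p 8.6e-18).

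Among 20 regulators of the E2F, RB and MYB families, 10 fell and 2 rose in resistant cells (median -0.05), in all 60% against 50.7% of all genes. E2F1 fell by 0.60 (SE 0.033) and E2F2 by 0.57 (SE 0.049), both activators of replication genes. FOXM1, a regulator of mitosis genes, rose by 0.23 (SE 0.028). Mean levels in the parental line moved the same way. With and without the drug they were 68.8 and 91.1 CPM for E2F1, 12.7 and 15.3 for E2F2, and 378 and 356 for FOXM1. In parental cells 4 fell and 8 rose, in all 60%, near the 58.2% of all genes. MYBL2 was lowest there (-0.57) and was higher in resistant cells by 0.95 off and 1.55 on the drug. Most of the 24 mitosis genes rose with the drug in both lines. Of all genes, 24.9% rose and 25.8% fell in resistant cells, and 31.6% rose and 26.6% fell in parental cells. Between the lines 30.3% of all genes were higher and 29.9% lower in resistant cells off the drug, and 34.6% and 34.9% on it. In resistant cells 22 rose and 0 fell with the drug (median 0.51), in parental cells 20 rose and 1, AURKB, fell (median 0.33), and off the drug 23 were lower and 0 higher in resistant cells (median -0.51). On the drug 21 were lower and 1, AURKB, higher in resistant cells (median -0.41). CENPA, a centromeric histone, rose by 0.88 and KIF20A, a kinesin of cytokinesis, by 0.87 in resistant cells. Levels of mitosis genes thus moved in the same comparisons as those of the replication genes, and the part of cell cycle phase in the results was not tested.

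Of the 55 genes, 27 share exonic bases with another annotated gene, and in 11 the neighbour took more than 10% of the pair's reads. The strand setting of the counting was not given in the sources used here, so reads from opposite strands may not have been told apart for these genes. Most changes were small: tested against a change of 0.5 log2 units instead of 0, 3 genes were called in parental cells (all lower), where 6.25% of all genes were called, 0.84% higher and 5.41% lower. In resistant cells 6 were called (5 lower, PIF1 higher), against 5.28% of all genes, 3.15% higher and 2.13% lower. Between the lines 4 were called off the drug (2 higher, 2 lower), against 15.5% of all genes, 9.35% higher and 6.15% lower, and 4 on it (1 higher, 3 lower), against 21.1%, 14.8% higher and 6.25% lower. The interaction passed in 2 genes (1 higher, 1 lower), against 5.45%, 4.48% higher and 0.972% lower.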

How the data were processed

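RNA was sequenced in 8 libraries, 2 for each of 4 groups. The deposited files hold raw read counts per gene. Per the labels and the methods of the study, the authors prepared stranded libraries from polyadenylated RNA, trimmed reads with SeqPurge, aligned them with HISAT2 2.2.1 to GRCh38, and used Picard and HTSeq, whose roles, versions and settings were not given in the sources used here. Duplicates and other unassigned reads stand in 9 lines outside the genes and were left out. Reads that fit several genes were listed as ambiguous (4.05 to 4.23% of assignable reads).

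Symbols, positions and exon lengths were taken from GENCODE release 44, which matched 60419 of 60675 identifiers, and promoters from RefSeq (GRCh38.p14). All 49 promoters compared were identical to the genome. Tests used edgeR 4.0.16 (R 4.3.3) with filterByExpr, TMM and a robust quasi-likelihood fit of 4 group means to 8 libraries (4 residual degrees of freedom), with Benjamini-Hochberg adjustment over 16661 genes. The SE is the log2 fold change over the square root of F. The code was tested on simulated counts. Genes given with all 8 values were those with the 4 largest rises and falls in each comparison and a short list of central genes, and from other lists at most 2 rises and 2 falls a comparison. Members and lists were chosen with earlier results of these data known. Alternatives were DESeq2 1.42.0 (size factors and Wald test), library totals, other filters, the replicate block, thinning, the compared groups alone, a test against 0.5 log2 units, and each library left out. Python 3.11.15 and matplotlib 3.10.9 drew the figures.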

Additional observations from a re-analysis of the deposited data

Results flagged for a closer look

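By the test of the interaction itself, treated and untreated groups differed unequally in the 2 lines for 43 of the 55 genes (78.2%), against 50.1% of all genes. Parental cells had 18 h of drug, whereas resistant cells had continued drug against a drug holiday, so line and exposure cannot be told apart. Each value below is the log2 response of resistant minus that of parental cells. Of these 43 genes, PIF1 (1.38), TYMS (0.25) and CDC7 (0.16) had positive differences. The PIF1 difference rests on the resistant untreated libraries, which stood at 14.4 and 16.5 CPM against 33.5 to 38.1 in the other 6.

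All other called differences were negative. For origin recognition and licensing they were ORC1 (-0.57), ORC3 (-0.50), GMNN (-0.37), CDC6 (-0.29), ORC4 (-0.24), ORC6 (-0.22), ORC5 (-0.18) and ORC2 (-0.15). For the MCM genes they were MCM6 (-0.60), MCM3 (-0.48), MCM7 (-0.46), MCM4 (-0.39), MCM2 (-0.38), MCM5 (-0.27), MCM10 (-0.25) and MCM8 (-0.18). Origin firing gave GINS1 (-0.41), GINS2 (-0.32), GINS3 (-0.30) and DBF4 (-0.17). Polymerases and primase gave POLA1 (-0.37), PRIM2 (-0.37), PRIM1 (-0.36), POLD3 (-0.35), POLD2 (-0.26) and POLE (-0.14), and the clamp and its loader gave PCNA (-0.34), RFC1 (-0.32), RFC3 (-0.31), RFC4 (-0.27), RFC5 (-0.25) and RFC2 (-0.21). Single-strand binding and fragment joining gave RPA1 (-0.46), RPA2 (-0.46), FEN1 (-0.39) and RPA3 (-0.30). Fork protection and chromatin assembly gave TIPIN (-0.32), CLSPN (-0.23), WDHD1 (-0.23) and CHAF1A (-0.22). By library totals alone 10 of these 40 were not called: ORC2, ORC4, ORC5, ORC6, MCM8, DBF4, POLE, RFC2, CLSPN and CHAF1A.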

How the results depend on the processing

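The cause of the changes below was not tested, except that a test against 0.5 log2 units asks for a larger change. That test left 3 calls in parental cells (0 higher, 3 lower), 6 in resistant cells (1 higher, 5 lower), 4 between the lines off the drug (2 higher, 2 lower), 4 on the drug (1 higher, 3 lower) and 2 in the interaction (1 higher, 1 lower). Of all genes it called 6.25%, 5.28%, 15.5%, 21.1% and 5.45% in the same order. The count higher in parental cells, 15, was 9 by library totals alone, for genes at a mean CPM of 1 or more, and after thinning to the smallest total, and 9 to 12 with each replicate left out, 9 without parental untreated replicate 1 or parental indisulam replicate 2. The count higher on the drug, 14, was 22 by library totals. The count higher in the interaction, 3, was 6 by library totals and 5 for genes at a mean CPM of 1 or more, and 3 to 6 with each replicate left out, 6 without parental indisulam replicate 1 or resistant untreated replicate 2. By library totals 6, 4, 1, 9 and 6 of the 55 genes changed sign in the same order of comparisons. Those called in either fit were MCM3 in parental cells (to -0.00), and on the drug POLD3 (0.087), PCNA (0.008) and RFC5 (0.074), and POLD3 also changed when genes under a mean CPM of 1 were dropped (0.078).

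Deviations of same-numbered libraries were weakly correlated (r from -0.192 to 0.137 over pairs of groups). This gave no clear sign that numbers pair the libraries, but with 2 libraries per group it cannot exclude pairing. With the replicate number as a block, 5 of 275 gene and comparison pairs lost their call and 38 genes were called in parental cells in place of 39. The resistant groups had r of -0.114, and with crossed numbers, a fit added after seeing the data, 49 genes were called there in place of 48 and 46 in the interaction in place of 43. Of the 275 pairs, 264 stayed on the same side of the threshold with the DESeq2 Wald test and 224 by library totals. After thinning to the smallest total 260 did.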
